A study of Sus scrofa with 25 samples.

Results

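The genes followed here in pig muscle are central to muscle wasting: ubiquitin ligase genes FBXO32, TRIM63 and FBXO30 and the transcription factor genes FOXO1, FOXO3 and FOXO4. They were chosen by symbol, as the 6 identifiers that carry these names in an Ensembl table, out of 25879 pig gene identifiers analysed. All 6 passed the filter on low counts, which kept 10992 genes for testing. The libraries came from 25 pigs, 1 library per pig, bred from Polish Large White sows and Landrace boars. The control diet (8 pigs) held vitamin D3 at 0 IU/kg of feed, the D5000 diet (8 pigs) held 5000 IU/kg and the D10000 diet (9 pigs) held 10000 IU/kg. Feeding began at day 85 of life and lasted 90 days, the feeds matched in protein and energy, and litters were split over the diets. Which muscle was sampled, and the sex and litter of each pig, are not stated in the labels. The comparisons ask whether the vitamin D3 dose goes with the level of these transcripts.

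Muscle protein is broken down largely by the ubiquitin-proteasome system, in which an E3 ligase picks the protein to be tagged. FBXO32 (atrogin-1, also MAFbx) and TRIM63 (MuRF1) are the muscle ligases whose transcripts rise in many kinds of atrophy in rodents, and FBXO30 (MUSA1) is a further F-box ligase of wasting muscle in mice. FOXO factors switch on such ligase genes and autophagy genes when insulin and IGF signalling through AKT is low, since AKT phosphorylation keeps FOXO proteins out of the nucleus.

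Values are CPM, the count of a gene scaled to the reads assigned to genes in its library. The libraries read the 3' end of mRNA, so counts do not scale with transcript length. Reads in no annotated gene (16.3% to 38.1% of a file) or not aligned uniquely (12.5% to 38.7%) were not counted. Such losses can differ between genes, so rankings and ratios between genes below are of CPM and need not be those of transcript number. In bulk muscle, fewer cells of a type and less RNA per cell cannot be told apart. Library totals ran from 3310507 to 15177976 gene counts, and 24.9% to 70.6% of the reads in a file were assigned to genes. In 3 libraries under 40% of reads were assigned, D5000 replicate 18 and D10000 replicates 2 and 7. One more library stood apart, D10000 replicate 27. Its 13 matched adipocyte markers summed to 28021 CPM, against 778 to 1699.9 CPM over the control and D5000 libraries, and its ADIPOQ, the adipocyte hormone adiponectin, stood at 1234 CPM against a median of 11.3 CPM over the 25 libraries. Its ACTA1, skeletal actin, was the lowest at 10029 CPM against a median of 98571 CPM. The adipocyte hormone LEP was at 0 in 20 libraries. ACTA1 and CKM, creatine kinase of muscle, were detected in all 25 libraries, and so was ALB, the liver transcript for albumin, at 934 to 18158 CPM. Values without these 4 libraries, called the doubtful libraries here, are given beside the results they move.

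FBXO32 (ENSSSCG00000005981) encodes the muscle F-box protein that in mice brings substrates such as MYOD1 and EIF3F to an SCF ligase. Its level varied widely within every diet. Control libraries held 59.5 CPM at the lowest, 237 CPM at the median and 1230.1 CPM at the highest. D5000 libraries held 141, 219 and 779 CPM on the same measures, and D10000 libraries held 65.5, 286 and 1219 CPM. The diets overlapped almost wholly.

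TRIM63 (ENSSSCG00000027684) encodes the RING-finger ligase that binds titin in the sarcomere and tags contractile proteins. Control libraries ran over 265, 447 and 660.5 CPM at the lowest, median and highest. D5000 libraries ran over 224, 333 and 1038 CPM. D10000 libraries ran over 35.4, 272 and 705 CPM. The D10000 median was the lowest, but the ranges overlapped, and the 3 lowest of the 25 values were those of D10000 replicates 27, 2 and 7, all among the 4 libraries named above.

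FBXO30 (ENSSSCG00000004121) held 34.99, 56.8 and 74.8 CPM at the lowest, median and highest in control libraries. It held 33.9, 55.0 and 77.2 CPM in D5000 libraries. It held 20.1, 49.3 and 64.8 CPM in D10000 libraries, the lowest again in replicate 27. The ranges overlapped, and FBXO30 had the smallest spread of the 3 ligases.

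**Figure D1:**
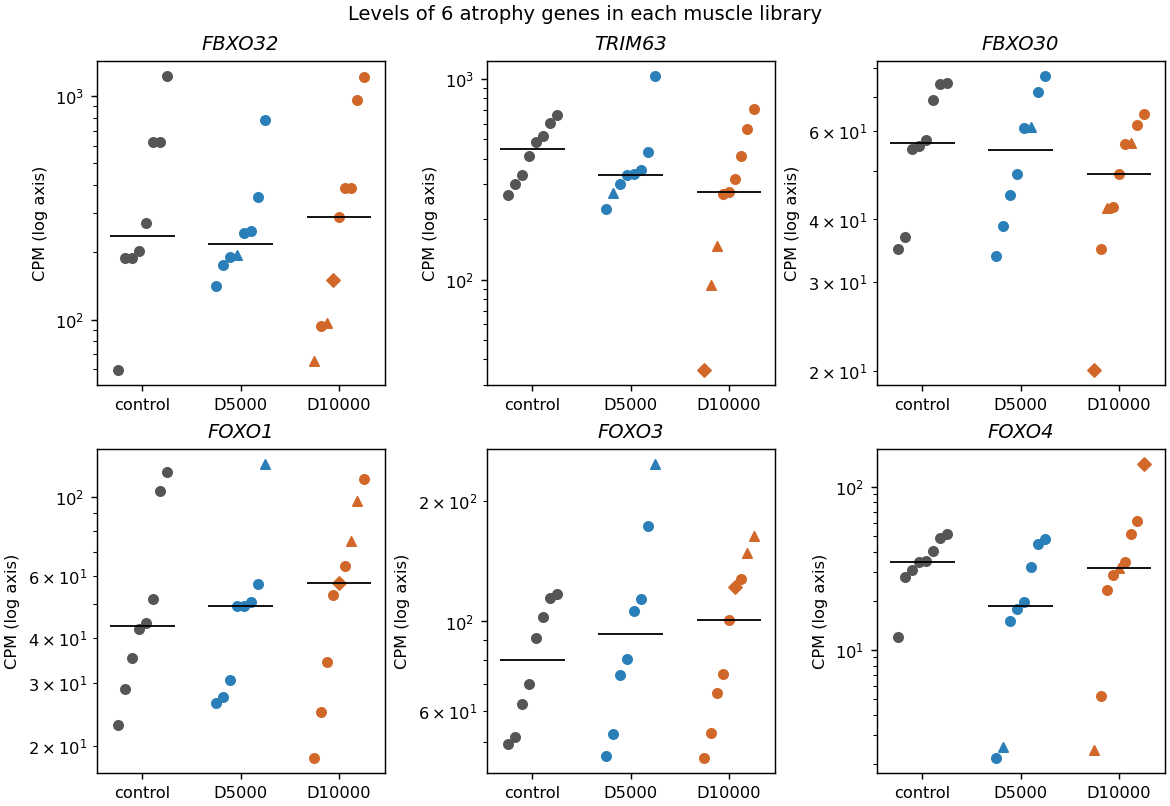
CPM of each gene (log axis) in each library by diet, ordered by level within a diet, with the median as a black line. Triangles are the 3 libraries with under 40% of reads assigned and the diamond is D10000 replicate 27; the diets overlap for all 6 genes.

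FOXO1 (ENSSSCG00000009370), which also controls fuel use in muscle, held 22.8, 43.5 and 117 CPM at the lowest, median and highest in control libraries. It held 26.4, 49.2 and 124 CPM in D5000 libraries, and 18.4, 57.2 and 112 CPM in D10000 libraries. The diets overlapped over nearly the whole range.

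FOXO3 (ENSSSCG00000004387), which in mice drives both ligase and autophagy genes, held 49.6, 80.3 and 117 CPM at the lowest, median and highest in control libraries. It held 46.2, 93.2 and 247 CPM in D5000 libraries and 45.6, 100.9 and 163 CPM in D10000 libraries. Its highest values at each vitamin D dose came from libraries with few reads assigned, D5000 replicate 18 and D10000 replicate 7. Ranges overlapped.

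FOXO4 (ENSSSCG00000012399) was the lowest and, for its level, one of the most variable. It held 12.0, 34.6 and 51.6 CPM at the lowest, median and highest in control libraries, 2.17, 18.6 and 47.9 CPM in D5000 libraries and 2.42, 31.5 and 138 CPM in D10000 libraries. Of the vitamin D libraries 4 lay far below the rest, with D5000 replicates 6 and 18 at 2.17 and 2.54 CPM and D10000 replicates 2 and 21 at 2.42 and 5.18 CPM. In the RefSeq annotation of Sscrofa11.1, the span of FOXO4 overlaps 1 other gene, CXHXorf65, and the other 5 genes overlap none. Spans were compared without strand or exons. The count files set ambiguous reads aside, so any reads that the counting placed on both genes would be missing from FOXO4. The annotation used for counting is not given, so whether it holds this overlap is not known. The part of this overlap in the FOXO4 counts was not tested. FOXO6, the remaining FOXO gene, was not among the 6: it held 3 counts in control replicate 16, 1 count in D10000 replicate 20 and 0 in the other 23 libraries, where a count of 0 allows up to 0.198 to 0.906 CPM by library (3 counts, counting error only).

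In order of mean log2 CPM, TRIM63 ranked 265 and FBXO32 ranked 325 among the 10992 genes, followed by FOXO3 at 956, FBXO30 at 1720, FOXO1 at 1798 and FOXO4 at 3381. FBXO30 and FOXO1 stood next to each other with overlapping ranges in every diet, and so did TRIM63 and FBXO32. The biological coefficient of variation, the spread between libraries of a diet relative to the level, was 0.782 for FBXO32, 0.643 for TRIM63 and 0.768 for FOXO4. These were above 97.6%, 89.7% and 98.2% of tested genes of like level. The coefficients of FBXO30 (0.391), FOXO1 (0.449) and FOXO3 (0.369) were above 24.7%, 54.4% and 14.2% of such genes. FBXO32, TRIM63 and FOXO4 thus had coefficients above those of FBXO30, FOXO1 and FOXO3. All 25 libraries entered, the 4 doubtful ones included. The highest TRIM63 CPM was 2.50 times the lowest in control, 4.62 times in D5000 and 19.9 times in D10000 libraries. For FOXO4 this was 4.28, 22.1 and 57.0 times, and for FBXO32 20.7, 5.53 and 18.6 times. The part of the doubtful libraries in the coefficients was not tested.

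Which of these ligases had the higher CPM also varied between pigs. The FBXO32 to TRIM63 ratio had a median of 0.659 in control, 0.673 in D5000 and 0.939 in D10000 libraries, and it exceeded 1 in 8 of 25 libraries. It ran over 0.199 to 1.86 in control libraries, 0.541 to 1.07 in D5000 libraries and 0.351 to 4.24 in D10000 libraries. The highest ratio, 4.24, was that of D10000 replicate 27, where TRIM63 was at its lowest.

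None of the 6 genes passed the test in any diet contrast. In D5000 against control libraries, 0 of the 6 and 0% of 10992 tested genes passed an adjusted p of 0.05 (edgeR's quasi-likelihood test with Benjamini-Hochberg adjustment). At an unadjusted p under 0.05, 371 genes (3.38%) stood out, none of them among the 6. DESeq2 and limma voom called 0 genes too, with 510 and 401 at an unadjusted p under 0.05.

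For D10000 against control, edgeR called 0% of tested genes and 0 of the 6, with 263 genes (2.39%) at an unadjusted p under 0.05, and DESeq2 and limma voom called 0 with 339 and 217. For D10000 against D5000 edgeR called 0% and 0 of the 6, with 323 genes (2.94%), and DESeq2 and limma voom called 0 with 393 and 312. In edgeR none of the 6 reached an unadjusted p under 0.05. Limma voom alone put TRIM63 below it in D10000 against control, at a log2 fold change of -1.06 ± 0.49 against -0.55 in edgeR, with an unadjusted p of 0.0389 and an adjusted p of 0.999 in voom. The joint test of both doses and the trend over dose called 0% each in edgeR, with 292 (2.66%) and 291 genes (2.65%) at an unadjusted p under 0.05 and none of the 6 among them.

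The fold changes and their intervals were wide. In D5000 against control libraries the log2 fold change of FBXO32 was -0.32 ± 0.59 (SE), which is a fold of 0.800 with a 95% interval of 0.347 to 1.84. For TRIM63 it was -0.03 ± 0.47, a fold of 0.976 (0.501 to 1.90). FBXO30 gave -0.15 ± 0.27, a fold of 0.901 (0.617 to 1.32).

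Among the FOXO genes, FOXO1 stood at a log2 fold change of -0.13 ± 0.31 in D5000 against control, a fold of 0.911 (0.585 to 1.42). FOXO3 was at 0.30 ± 0.25, a fold of 1.23 (0.867 to 1.76), and FOXO4 at -0.65 ± 0.57, a fold of 0.637 (0.282 to 1.44). All 6 adjusted p-values in this edgeR contrast lay between 0.9986 and 0.9992. FBXO32, TRIM63 and FBXO30 stood at -0.19, 0.09 and -0.09 without the 4 doubtful libraries, and FOXO1, FOXO3 and FOXO4 at -0.26, 0.19 and -0.46. A p that misses the threshold does not show that the diets act alike: folds of 0.347 to 1.84 lie within the FBXO32 interval.

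In D10000 against control libraries, FBXO32 gave a log2 fold change of -0.04 ± 0.57, a fold of 0.976 (0.434 to 2.19). TRIM63 gave -0.55 ± 0.46, a fold of 0.682 (0.357 to 1.30), and FBXO30 gave -0.40 ± 0.26, a fold of 0.760 (0.527 to 1.10). FOXO1, FOXO3 and FOXO4 gave -0.03 ± 0.31, 0.08 ± 0.24 and 0.05 ± 0.55. Without the 4 doubtful libraries, a choice made after seeing the data, TRIM63 stood at -0.05 and FBXO30 at -0.13, FBXO32 turned to 0.48, and FOXO3 and FOXO4 turned to -0.04 and -0.03. Without D10000 replicate 27 alone, TRIM63, FBXO30, FBXO32, FOXO1 and FOXO4 stood at -0.39, -0.27, 0.10, 0.01 and -0.29.

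In D10000 against D5000 libraries, TRIM63 was at a log2 fold change of -0.52 ± 0.46 and FOXO4 at 0.70 ± 0.56. Without the 4 doubtful libraries these were -0.14 and 0.43, and without D10000 replicate 27 alone -0.35 and 0.35. FBXO32, FBXO30, FOXO1 and FOXO3 lay between -0.25 and 0.29. They were 0.67, -0.04, 0.22 and -0.23 without the 4 doubtful libraries. Both contrasts with control use the same 8 control libraries. The smallest adjusted p of any gene in the 3 contrasts was 0.9986.

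**Figure D2:**
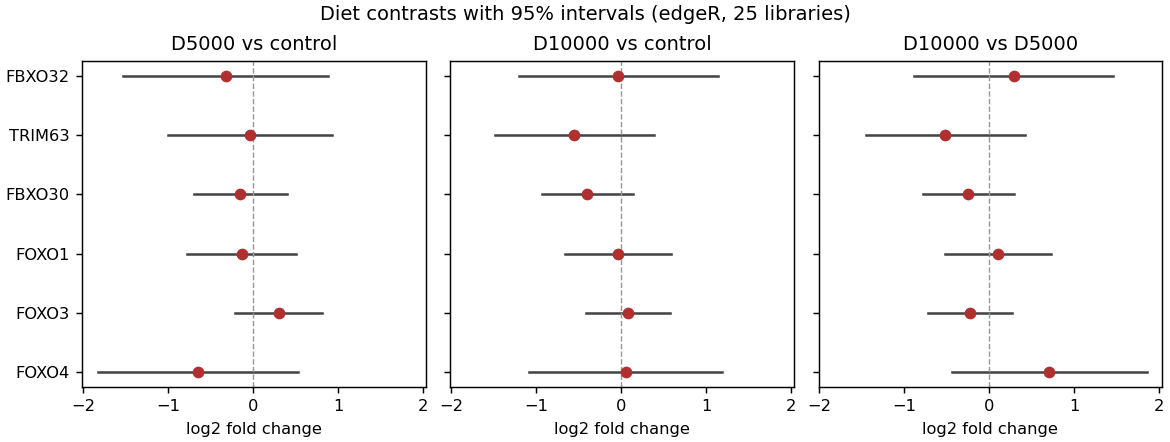
Log2 fold change of each gene (points) with its 95% interval (bars) in the 3 diet contrasts from edgeR. Every interval crosses 0.

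Across pigs, FBXO32 and TRIM63 moved together. Over the 25 libraries, with each diet centred on its own mean, log2 CPM of the ligases had a Pearson r of 0.72 (permutation p = 0.00053, adjusted over 15 pairs 0.00795) and a Spearman rho of 0.71 (adjusted 0.0036). It was 0.71 without the 2 libraries farthest from the median, 0.60 without the 4 doubtful libraries (adjusted 0.049) and 0.67 to 0.77 leaving out each library in turn. Within diets it was 0.34 over the control libraries, 0.95 over the D5000 libraries and 0.75 over the D10000 libraries. D5000 replicate 15 held the highest TRIM63 of all, 1038 CPM, together with 779 CPM of FBXO32.

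FOXO1 and FOXO3 also moved together, with r = 0.59 (permutation p = 0.003, adjusted 0.0227) and rho = 0.52 (adjusted 0.0777). It was -0.13 over control libraries, against 0.74 in D5000 and 0.84 in D10000 libraries, 0.49 without the 2 farthest libraries and 0.54 without the 4 doubtful libraries (adjusted 0.0647). TRIM63 and FBXO30 had r = 0.61 (adjusted 0.0307), but rho was 0.45 (adjusted 0.163), and r was 0.38 without D10000 replicate 27 (adjusted 0.325), 0.31 without TMM scaling (adjusted 0.481), 0.28 without the 2 farthest libraries and 0.09 without the 4 doubtful libraries. Its r also missed the threshold when D5000 replicate 18 or D10000 replicate 7, 13, 26 or 30 was left out (adjusted 0.0505 to 0.081), though it stayed at 0.56 to 0.61 there, so D10000 replicate 27 was the single library that lowered it most. The other 12 pairs did not pass, including each FOXO gene with each ligase, whose r ran over -0.18 to 0.28. TRIM63 with FOXO4, at 0.20, stood at 0.51 without D10000 replicate 27 and at 0.19 without the 4 doubtful libraries. FBXO32 with FOXO1 stood at 0.28 and with FOXO3 at 0.18. Without the 4 doubtful libraries these were 0.59 and 0.65, and FBXO32 with FOXO3 then passed the threshold (adjusted 0.0237).

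**Figure D3:**
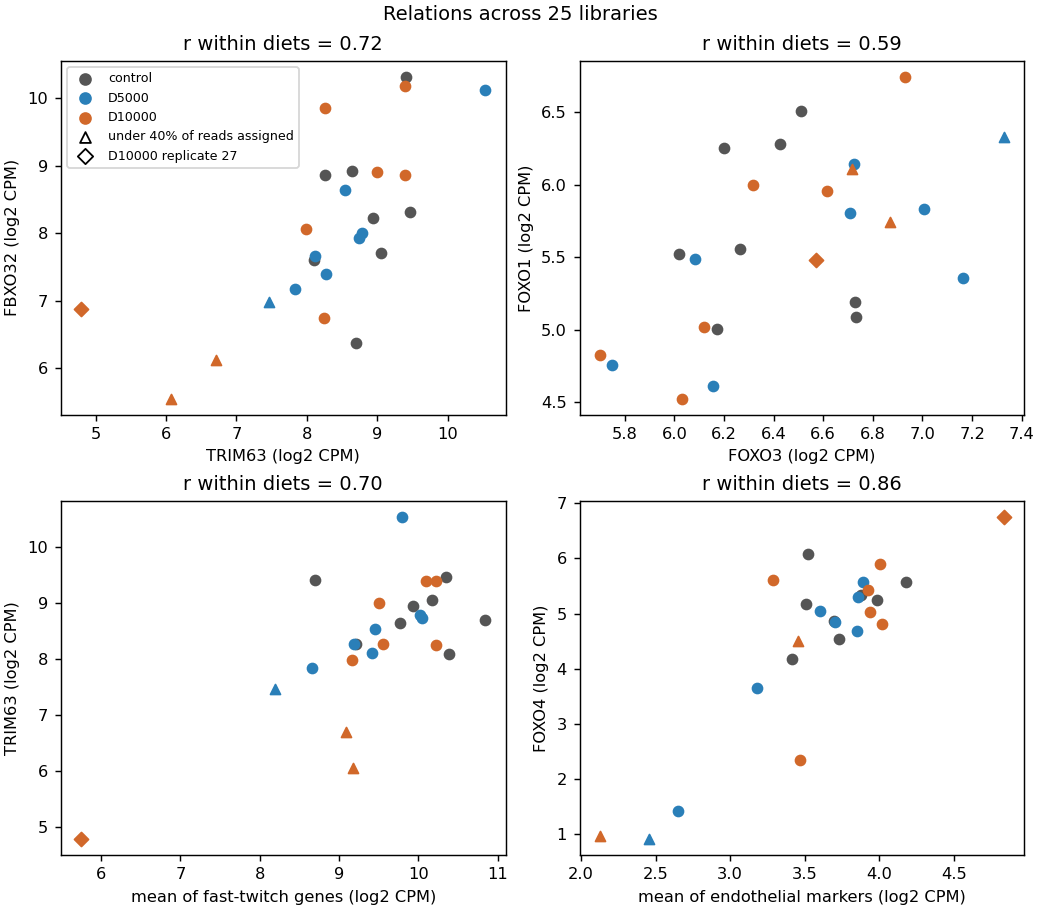
Log2 CPM of 4 pairs of measures in the 25 libraries, coloured by diet; r is centred on diet means. D10000 replicate 27 (diamond) is at the low end of TRIM63 and at the high end of FOXO4.

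FOXO4 moved with features of the library. It had r = 0.86 with the mean log2 CPM of endothelial markers, 8 of 10 matched (permutation p adjusted over 60 relations 0.0024; rho 0.66, adjusted 0.032). This was 0.73 without the 2 farthest libraries and 0.68 without the 4 doubtful ones (adjusted 0.224). Summed endothelial CPM ran over 93.8 to 221 in control, 102 to 240 in D5000 and 114 to 765 in D10000 libraries. The 765 CPM was that of replicate 27, and the next highest D10000 library held 188 CPM. The 240 CPM was that of D5000 replicate 18, yet its mean log2 CPM of these markers was 2.46 and its FOXO4 2.54 CPM. D10000 replicate 2 held a sum of 134 CPM, with a mean log2 CPM of 2.13 and FOXO4 at 2.42 CPM. The r used the mean log2 CPM, and in these libraries the sum was not low with it. PECAM1 was detected in all 25 libraries and EGFL7 was at 0 in 1. Within diets r was 0.33 in control, 0.98 in D5000 and 0.84 in D10000 libraries.

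FOXO4 had r = 0.72 with the share of reads assigned (adjusted 0.0116) and 0.72 with log2 total gene counts (adjusted 0.0116), so deeper libraries with more assigned reads held more of it. The Spearman coefficients were 0.63 (adjusted 0.032) and 0.54 (adjusted 0.0764), so that with total counts missed the threshold. Within diets the r with the share was 0.71 in control, 0.76 in D5000 and 0.73 in D10000 libraries, and that with total counts 0.11, 0.71 and 0.82. The low FOXO4 of D5000 replicate 18 and D10000 replicate 2 fell in libraries with 24.9% and 28.4% of reads assigned, and that of D5000 replicate 6 and D10000 replicate 21 in libraries with 52.0% and 47.6%. Without D10000 replicate 2 both relations missed the threshold, at r of 0.63 and 0.60 (adjusted 0.0825 and 0.121), and without TMM scaling they stood at 0.57 and 0.60 (adjusted 0.0673 and 0.0654). Without the 2 farthest libraries they were 0.46 and 0.50, and without the 4 doubtful libraries 0.58 and 0.49 (adjusted 0.224 and 0.726). The part of these features in the FOXO4 values was not tested.

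TRIM63 and FBXO30 had r = 0.70 and 0.69 with the mean of fast-twitch genes, 13 of 14 matched (adjusted 0.0116 and 0.0365). The Spearman coefficients were 0.57 and 0.46 (adjusted 0.076 and 0.116). Without D10000 replicate 27 the Pearson r values were 0.47 and 0.40 and missed the threshold (adjusted 0.108 and 0.217), and without TMM scaling they were 0.58 and 0.51 (adjusted 0.162 each). Without the 2 farthest libraries they were 0.40 and 0.33, and without the 4 doubtful libraries 0.27 and 0.23 (adjusted 0.788 each). Within diets TRIM63 stood at -0.17 in control, 0.69 in D5000 and 0.84 in D10000 libraries, and FBXO30 at 0.34, 0.34 and 0.86. The adjusted p of TRIM63 also missed the threshold without D10000 replicate 2 (0.066), where r was 0.74. That of FBXO30 missed it in 13 of the 25 fits that left out 1 library (0.0516 to 0.229), with r of 0.66 to 0.70 in those other than the fit without replicate 27. TRIM63 with the share of reads assigned had r = 0.58 (adjusted 0.071) and a Spearman rho of 0.64 (adjusted 0.0312) over the 25 libraries, and r of 0.72 without D10000 replicate 27 (adjusted 0.00705). Without that library TRIM63 also passed with log2 total gene counts (0.80, adjusted 0.003) and endothelial markers (0.61, adjusted 0.0486), where it stood at 0.49 and 0.16 over the 25 libraries. These values were 0.40 with the share, 0.58 with total counts and 0.26 with endothelial markers without the 4 doubtful libraries. Summed fast-twitch CPM ran over 24390.1 to 77455 in control, 17912 to 58435 in D5000 and 2725 to 60931 in D10000 libraries, the low end being replicate 27. Slow-twitch genes, 8 of 14 matched, went the same way. With their mean, TRIM63 and FBXO30 had r = 0.56 and 0.48, short of the threshold (adjusted 0.0723 and 0.176). These were 0.40 and 0.27 without D10000 replicate 27, and 0.02 and -0.004 without the 4 doubtful libraries. Within D10000 libraries they were 0.86 and 0.84, against 0.37 and 0.31 in control and 0.08 and -0.20 in D5000 libraries. The part of fibre content in the level of these ligases was not tested. FBXO32, FOXO1 and FOXO3 passed with none of the 10 measures. FOXO3 and FOXO1 had r of -0.52 and -0.42 with the share of reads assigned (adjusted 0.0987 and 0.224), and -0.76 and -0.69 without TMM scaling (adjusted 0.0015 and 0.0076).

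**Figure D4:**
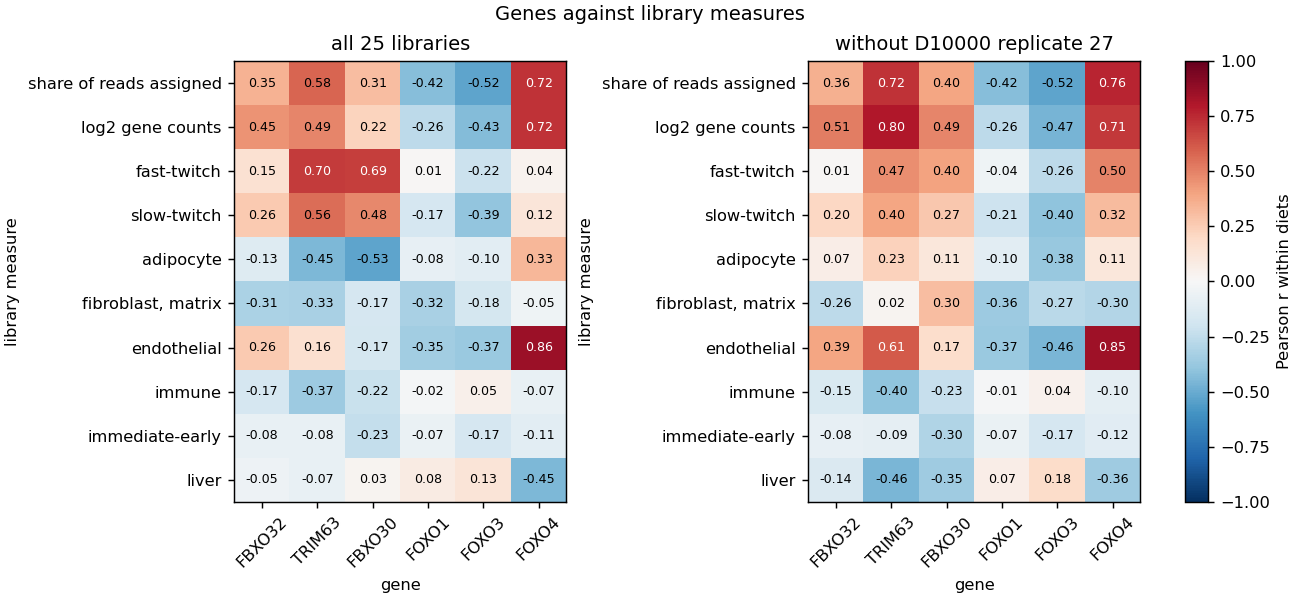
Pearson r, centred on diet means, of each gene with 10 library measures over 25 libraries (left) and without D10000 replicate 27 (right). FOXO4 stands at 0.86 and 0.85 with endothelial markers, and TRIM63 at 0.70 and 0.47 with fast-twitch genes.

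Genes whose pattern over the 25 libraries was most like each of the 6 were named by the highest r among 9665 genes with a symbol. For FBXO32 they were MAX (0.84), the partner of MYC, SQSTM1 (0.79), the autophagy receptor p62, and LRRC14B (0.72). For TRIM63 they were ZFAND5 (0.90), a ubiquitin-binding protein tied to atrophy in mice, COQ10A (0.87), a coenzyme Q-binding protein, and UNC45B (0.86), a myosin chaperone. Without D10000 replicate 27 the r of MAX with FBXO32 was 0.87 and that of ZFAND5 with TRIM63 0.88. MAX, SQSTM1 and LRRC14B stood at 0.87, 0.70 and 0.58 without the 4 doubtful libraries, and ZFAND5, COQ10A and UNC45B at 0.74, 0.56 and 0.56.

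FOXO1 was most like EEIG2 (0.80), GGPS1 (0.74), which makes geranylgeranyl diphosphate, and ADPRH (0.70), an ADP-ribosylarginine hydrolase. FOXO3 was most like ADPRH (0.78), MFAP1 (0.72), a spliceosome protein, and CD84 (0.71), an immune-cell receptor. These 6 values stayed between 0.70 and 0.83 without D10000 replicate 27. They were 0.82, 0.74 and 0.69 for FOXO1 and 0.70, 0.64 and 0.61 for FOXO3 without the 4 doubtful libraries. ADPRH was shared by both factors.

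FOXO4 was most like TINAGL1 (0.96), a matrix protein, NAPA (0.92), a SNARE adaptor, and TBX6 (0.92), a T-box factor, with 0.93, 0.82 and 0.88 without the 4 doubtful libraries. FBXO30 was most like FMC1 (0.78), CDKN2C (0.77), a cyclin-dependent kinase inhibitor, and P2RX5 (0.76), an ATP-gated channel, and these had r of 0.58, 0.58 and 0.55 without D10000 replicate 27 and 0.43, 0.38 and 0.39 without the 4 doubtful libraries. At an r of at least 0.5, a cutoff set after seeing the data, 15.3% of tested genes moved with FOXO4, 8.75% with TRIM63, 4.91% with FBXO30, 2.08% with FBXO32, 1.55% with FOXO3 and 1.02% with FOXO1. The first 4 of these shares were 11.7%, 1.96%, 0.655% and 1.36% without the 4 doubtful libraries.

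The FOXO targets were also set beside each of the 6 genes across pigs. Of 42 tested targets, 9 reached r of 0.5 with FBXO32, against 2.08% of all genes, among them SQSTM1 (0.79), CDKN1B (0.66), a cyclin-dependent kinase inhibitor, GADD45B (0.59) and GADD45A (0.56), stress-response genes, and INSR (0.55), the insulin receptor. Without the 4 doubtful libraries SQSTM1 stood at 0.70 and GADD45A at 0.34. With TRIM63 10 of 42 did, against 8.75% of all genes, led by CDKN1B (0.72). With FBXO30 3 of 42 did, against 4.91%. DDIT4 (0.63), an inhibitor of mTORC1, was the one with FOXO1, against 1.02% of all genes. With FOXO3 0 of 42 reached it, against 1.55%, and with FOXO4 8 of 42 did, against 15.3%. Without D10000 replicate 27 the counts of 42 were 7 for FBXO32, 11 for TRIM63, 1 for FBXO30, 2 for FOXO1, 2 for FOXO3 and 8 for FOXO4. The shares over all genes were then, in the same order, 2.95%, 11.9%, 2.04%, 1.41%, 2.47% and 17.6%. Without the 4 doubtful libraries the counts were 6 for FBXO32, 1 for TRIM63, 0 for FBXO30, 2 for FOXO1, 5 for FOXO3 and 3 for FOXO4. The shares over all genes were then 1.36%, 1.96%, 0.655%, 1.5%, 1.43% and 11.7%. The list of 29 other muscle ligases also holds ZFAND5, a ubiquitin-binding protein, and CUL3, a cullin. Of these 29 genes, 10 reached it with TRIM63 and 4 with FBXO32. ZFAND5 led with TRIM63, followed by ASB2 (0.82) and FBXO40 (0.79), both substrate receptors of cullin ligases. These counts were 3 and 1 without the 4 doubtful libraries. Of 24 tested ligase substrates 15 reached it with TRIM63, and 7 without D10000 replicate 27, where the share over all genes was 11.9%. None did (0 of 24) without the 4 doubtful libraries, where the share was 1.96%.

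Other genes of the pathway did not pass the diet tests either. The tested lists held 29 genes listed as other muscle ligases, 26 of the SCF and ubiquitin machinery and 37 upstream of FOXO. They also held 42 FOXO targets and 24 substrates. In each contrast 0 of these were called by edgeR. At an unadjusted p under 0.05 in D5000 against control stood 2 of 29 other ligases, 1 of 26 machinery genes, 0 of 37 upstream genes, 2 of 42 targets and 1 of 24 substrates, where 3.38% of all genes did. In D10000 against control these were 0, 0, 1, 1 and 0, where 2.39% of all genes did. In D10000 against D5000 they were 0, 1, 1, 2 and 0, where 2.94% did.

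Among other ligases, ITCH, a HECT ligase, gave a log2 fold change of 0.64 ± 0.31 in D5000 against control (adjusted p = 0.999), with 20.3 to 119 CPM in D5000 and 17.6 to 46.6 CPM in control libraries. TRIM32, a ligase mutated in limb-girdle muscular dystrophy, gave -0.74 ± 0.36 and HUWE1, a further HECT ligase, 0.79 ± 0.42. In the ubiquitin machinery UBE2E1, a conjugating enzyme, gave -0.67 ± 0.31 and UBA1, the main activating enzyme, -0.76 ± 0.40. USP19, a deubiquitinase, gave 0.74 ± 0.31 in D10000 against D5000. In the same contrasts without the 4 doubtful libraries, ITCH, TRIM32 and HUWE1 stood at 0.48, -0.72 and 0.58. UBE2E1, UBA1 and USP19 then stood at -0.60, -0.61 and 0.57. None passed.

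Upstream of FOXO, IGF1R, the IGF1 receptor, gave 1.18 ± 0.61 in D5000 and 1.34 ± 0.60 in D10000 against control, and 0.82 and 0.37 without the 4 doubtful libraries. AKT2, the kinase that restrains FOXO under insulin, gave 0.51 ± 0.35 in D10000 against control and -0.12 without replicate 27. PPP2CA, a phosphatase subunit, gave 0.48 ± 0.27 in D5000 against control and 0.57 without the 4 doubtful libraries.

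Among targets, TRIB1, a pseudokinase, had the smallest joint p of its list. It held 67.4, 151 and 273 CPM at the lowest, median and highest in D5000 libraries, against 28.1, 60.2 and 103 CPM in control libraries, and 33.6, 89.4 and 212 CPM in D10000 libraries. The D5000 log2 fold change against control was 1.205 ± 0.35 (unadjusted p = 0.00157, adjusted p = 0.999) and 1.17 without the 4 doubtful libraries. LPL, which frees fatty acids from circulating fat, gave 2.85 ± 1.03 in D10000 against control and -0.37 without replicate 27, the library in which it held 6328 CPM. CCND2, a cyclin, gave 1.00 ± 0.46 in D5000 against control and 0.31 without the doubtful libraries.

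Substrates of the ligases lay on the low side at the top dose: 22 of 24 were below 0 in D10000 against control, where 42.8% of all tested genes were, with a median log2 fold change of -0.40 against 0.07 over all genes. The median was -0.23 without replicate 27 and -0.07 without the 4 doubtful libraries, when 15 of 24 were below 0. Over all genes the median was then 0.02 without replicate 27 and -0.007 without the 4 doubtful libraries. The 42.8% is that of the 25 libraries and is not the share to set beside the 15 of 24. Of the 24, 13 are also in the lists of muscle identity, fast-twitch or slow-twitch genes, among them ACTA1, CKM, MYL1 and MYL2. In this contrast 9 of 9 muscle identity genes lay below 0 (median -0.36), as did 12 of 13 fast-twitch genes (-0.39) and 7 of 8 slow-twitch genes (-0.48). These values include replicate 27, which held the lowest sum of each list, at 13603, 2725 and 648 CPM. The median sums were 144901, 36863 and 3105 CPM in D10000 libraries, and 159268, 49783 and 4213 CPM in control libraries. Of the adipocyte markers 11 of 12 lay above 0 (median 2.67), but their high level was that of replicate 27 alone. Their summed CPM had a median of 1177 in control and 1283 in D10000 libraries. Replicate 27 held 28021 CPM and the next highest D10000 library 1642 CPM. The part of muscle and fat content in the substrate median was not tested. MYOG, the myogenic factor myogenin, gave -0.96 ± 0.43 in D5000 against control, with 24.2 to 86.1 CPM in D5000 and 29.8 to 169 CPM in control libraries. The unadjusted edgeR p was 0.0315. Without the 4 doubtful libraries MYOG stood at -0.93 (unadjusted p = 0.00415). In D10000 against D5000 it gave 0.66 ± 0.41 (unadjusted p = 0.121), and 1.00 without those libraries (unadjusted p = 0.00371). TNNI2, fast troponin I, gave -0.94 ± 0.55 in D5000 and -0.84 ± 0.53 in D10000 against control, and -0.80 and -0.75 without the 4 doubtful libraries. EIF3F, an initiation factor subunit, gave 0.46 ± 0.28 in D5000 against control. These genes did not pass the test.

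**Figure D5:**
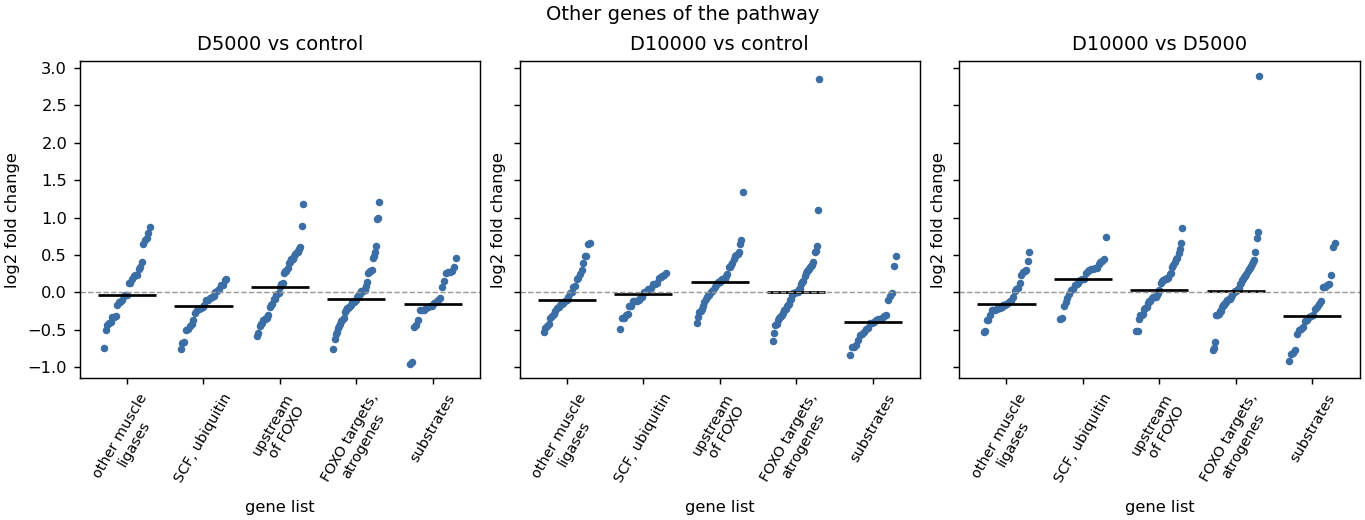
Log2 fold change of each tested gene (points) of 5 pathway lists in the 3 diet contrasts, with list medians as black lines. The substrate median in D10000 against control is -0.40, and LPL, the highest point there, is at 2.85.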

How the data were processed

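The deposited values were raw read counts per Ensembl pig gene, 1 file per pig. They are whole numbers and were not normalized. Per the labels' protocols, libraries were made with a Lexogen QuantSeq kit, which reads 3' ends. Per the submitters' processing notes FastQC was used. Aligner, counter, genome build and annotation: not given in the sources used here. No coordinates are printed. Summary lines (24.9% to 70.6% of reads assigned) and spike-ins stayed out of library sizes.

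Symbols came from an Ensembl table. Genes were filtered with filterByExpr (minimum count 10, minimum total 15), scaled by TMM and fitted by diet in 1 model with glmQLFit and glmQLFTest (robust) of edgeR 4.0.16 in R 4.3.3, adjusted over 10992 genes. DESeq2 1.42.0 and limma 3.58.1 voom were alternatives. The pipeline was tested on simulated data. Pearson r used log2 CPM (prior count 2) centred on diets, Spearman rho uncentred values, with 100000 permutations within diets, two-sided. Labels do not say more of how pigs were sampled than 1 library each.

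Named genes were the 6 themselves, any list gene past the threshold plus the 3 of each list with the smallest joint p, and the 3 genes of highest r with each. The 6 genes, the lists and the rule were chosen with earlier results of these data known. The r cutoff of 0.5 and the removal of 4 libraries were chosen after seeing the data. Total counts of 3310507 to 15177976 limit the precision of low genes such as FOXO4.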

Additional observations from a re-analysis of the deposited data

Results flagged for a closer look

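Within a diet, 4 values lay farther from the nearest library than the 95% limit of Dixon's test allows, out of 18 gene and diet groups examined. For values that follow a normal curve, chance flags about 1 in 20 groups. The rule was applied to CPM without a log, and the groups share libraries, so that rate need not hold here. In D5000 replicate 15, FBXO32 stood at 779 CPM and TRIM63 at 1038 CPM, both the highest of the 8 D5000 libraries. In D5000 replicate 18, a library with 24.9% of reads assigned, FOXO1 stood at 124 CPM. In D10000 replicate 27, the library rich in adipocyte transcripts, FOXO4 stood at 138 CPM. The part of these features in the values was not tested.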

How the results depend on the processing

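No gene was called in any diet contrast under any alternative run, which comprised other scaling, DESeq2, limma voom, 2 other filters, 2 diets only, no robust estimation, 3 covariates, leaving out each library in turn and removing the 4 doubtful libraries. No paired analysis was possible because no animal number occurs in more than 1 diet and the labels give no litter. Small log2 fold changes turned sign. In D5000 against control, TRIM63 (-0.03) was 0.22 with the assigned share as covariate, 0.15 with the fast-twitch covariate and 0.088 without the 4 libraries, and FBXO30 was 0.066 with the fast-twitch covariate. In D10000 against control, FBXO32 was 0.48 without the 4 libraries. FOXO1 (-0.03) was 0.0049 with DESeq2 size factors and 0.0048 with DESeq2. FOXO3 was -0.028 with the share covariate and -0.043 without the 4 libraries. FOXO4 was -0.38 with voom, -0.24 with the adipocyte covariate, -0.13 with the fast-twitch covariate and -0.029 without the 4 libraries. In D10000 against D5000, FBXO32 was -0.11 with voom. Leaving out 1 library gave ranges. In D5000 against control they were -0.92 to 0.18 for FBXO32 (the ends without D5000 replicate 15 and control replicate 28), -0.58 (without D5000 replicate 15) to 0.087 for TRIM63 and -0.26 to 0.014 for FOXO1. In D10000 against control they were -0.42 to 0.47 for FBXO32 (without D10000 replicate 1 and control replicate 28), -0.22 to 0.12 for FOXO1 and -0.29 to 0.25 for FOXO4 (without D10000 replicates 27 and 2). In D10000 against D5000 they were -0.10 to 0.88 for FBXO32, -0.73 to 0.028 (without D5000 replicate 15) for TRIM63 and -0.091 to 0.25 for FOXO1. The number of relations with library measures past the threshold, 5, was 1 without D10000 replicate 2 (a range of 1 to 6 over single libraries) and 0 without the 4 libraries. Size factors of DESeq2 put the median of all genes in D10000 against control at 0.11, against 0.07 with TMM, and voom at -0.04 with 54.2% of genes below 0. The cause was not tested.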

Other observations

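Without D10000 replicate 27, the library rich in adipocyte transcripts, genes other than those above came near the top of the ranking by likeness. They are named after their values were seen. LPIN1, which makes diacylglycerol and acts as a transcriptional coactivator, reached r = 0.86 with FBXO32, against 0.68 over the 25 libraries. CRY2, a repressor of the circadian clock, reached 0.84 with TRIM63, against 0.73 over the 25 libraries. With FBXO30, ABCG4 (0.72) and MRPL52 (0.65) ranked highest without that library, against 0.55 and 0.32 over the 25 libraries. PSME4, the proteasome activator PA200, ranked 3 for FBXO30. Its r of 0.65 was lower than the 0.76 it had over the 25 libraries. These values are descriptions over 24 libraries and carry no test.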
